A study of Mus musculus with 30 samples.

Results

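The genes described here encode the enzymes that assemble triglyceride from glycerol 3-phosphate or monoacylglycerol and fatty acyl-CoA. They were taken by symbol from the deposited expression matrix. All 10 listed symbols (Gpam, Gpat3, Gpat4, Agpat2, Lpin1, Lpin2, Lpin3, Dgat1, Dgat2 and Mogat1) were found, each on 1 row, among 55357 genes. RNA-seq of C57BL/6N mice covered liver, brown adipose tissue (BAT) and sWAT, commonly subcutaneous white fat. Each tissue had 5 libraries of mice on HFD (commonly high-fat diet) with imeglimin, an oral drug that lowers blood glucose, and 5 of mice on HFD alone. All 30 libraries therefore share the HFD, and no group on another diet is among them. The labels used here give no dose, duration, age or sex and do not tie each library to an animal of its own, so p-values reflect the spread between these libraries, part of which may be technical. The series' design text states 4 against 4, and the 5 per group of the labels were used.

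In the glycerol phosphate pathway a glycerol-3-phosphate acyltransferase (GPAT) first makes lysophosphatidic acid, and an acylglycerol-phosphate acyltransferase (AGPAT) turns that into phosphatidic acid. Lipins remove the phosphate to give diacylglycerol, and a diacylglycerol acyltransferase (DGAT) adds the last acyl chain. Monoacylglycerol acyltransferase enters the chain at diacylglycerol from monoacylglycerol. White adipose tissue uses the pathway for storage, liver also for export in very low density lipoprotein, and brown fat for the lipid droplets that feed heat production.

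Expression was measured in TPM, which gives each transcript's length-corrected share of its library and leaves the depth of each library unknown. BAT libraries carried Ucp1 at 4652 ± 543 TPM with imeglimin and 4863 ± 754 TPM on HFD alone (SD, n = 5 each), against at most 1.53 TPM in any liver or sWAT library. Liver libraries carried Alb at 45846 TPM or more, and sWAT libraries carried Adipoq at 2950 TPM or more. Some libraries stood apart. In BAT the summed level of 10 skeletal muscle markers was 5091 TPM in imeglimin library 94 and 5834 TPM in HFD library 79, against 5.99 to 197 TPM in the other imeglimin libraries and 84.8 to 731 TPM in the other HFD libraries. In sWAT, imeglimin library 88 carried 1318 TPM of 5 B-lymphocyte markers, against at most 5.95 TPM in the other sWAT libraries, and 14518 TPM of 8 hepatocyte markers, against 432 to 1134 TPM. Its summed level of 5 white adipocyte markers was 12922 TPM, the lowest of the 10 sWAT libraries, against 20184 to 23166 TPM in the other imeglimin libraries and 15634 to 18372 TPM in HFD libraries. These markers did not move together. In sWAT Cfd averaged 7835 TPM with imeglimin and 2945 TPM on HFD alone, and Plin1 1435 and 1315 TPM. Means with imeglimin were lower for Lep, Adipoq and Retn. Mitochondrial transcripts and their 6 nuclear copies took 62.3% to 68.6% of all TPM in BAT. They took 18.6% to 21.9% in liver and 16.8% to 22.6% in sWAT. The larger share lowers every other gene in BAT relative to the other tissues. Within BAT the share was 66.7% to 68.6% with imeglimin (mean 67.7%) and 62.3% to 67.2% on HFD alone (mean 64.8%). For imeglimin minus HFD in BAT, the log2 median of all genes was -0.12 as deposited and -0.01 with these transcripts removed. In these bulk samples, fewer cells of a type and less RNA per cell cannot be told apart.

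Promoter windows are shown for Gpat3, Agpat2 and Lpin2. Gpat3 was the first acyltransferase most abundant in sWAT, and Lpin2 was the lipin found mainly in liver. Among the 10 genes, Agpat2 was the acyltransferase with the widest imeglimin difference in sWAT. Each window runs from 250 bases before to 50 bases after a RefSeq transcription start, on build GRCm38.p6, and is written on the gene's strand. Windows were found for 7 of the 10 genes. Capitals mark matches to GGGCGG (the GC box) or CACGTG (the E-box).
Gpat3, chr5:100845979-100846278, plus strand: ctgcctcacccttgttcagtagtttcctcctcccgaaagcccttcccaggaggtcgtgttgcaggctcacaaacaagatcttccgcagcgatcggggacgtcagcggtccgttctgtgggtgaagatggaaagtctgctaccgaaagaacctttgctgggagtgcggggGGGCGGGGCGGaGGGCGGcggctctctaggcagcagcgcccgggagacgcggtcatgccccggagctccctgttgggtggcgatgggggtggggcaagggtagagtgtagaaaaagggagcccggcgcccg
Agpat2, chr2:26604368-26604667, minus strand: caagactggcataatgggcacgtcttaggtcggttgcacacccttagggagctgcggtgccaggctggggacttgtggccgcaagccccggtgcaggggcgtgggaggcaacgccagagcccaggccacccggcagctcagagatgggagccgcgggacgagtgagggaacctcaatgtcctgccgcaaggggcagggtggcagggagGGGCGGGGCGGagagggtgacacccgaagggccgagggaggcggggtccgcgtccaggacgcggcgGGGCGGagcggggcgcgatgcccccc
Lpin2, chr17:71183282-71183581, plus strand, the first of 3 starts: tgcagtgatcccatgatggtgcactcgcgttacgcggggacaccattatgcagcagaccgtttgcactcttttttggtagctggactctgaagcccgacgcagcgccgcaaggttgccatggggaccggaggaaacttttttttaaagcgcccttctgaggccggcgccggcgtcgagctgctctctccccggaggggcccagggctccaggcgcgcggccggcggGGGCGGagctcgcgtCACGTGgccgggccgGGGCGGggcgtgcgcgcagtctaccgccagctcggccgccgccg
Counted from the start site, GC boxes begin at -81, -76 and -69 in the Gpat3 window, where the first pair overlaps by 1 base, at -42, -37 and 25 in the Agpat2 window, and at -24 and 7 in the Lpin2 window. The E-box begins at -9 in the Lpin2 window. GC boxes, sought on both strands, occur in 35.7% of 32851 promoter windows of the same length, and E-boxes in 7.15%. A match is a run of letters and not a measured binding site.

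**Figure D1:**
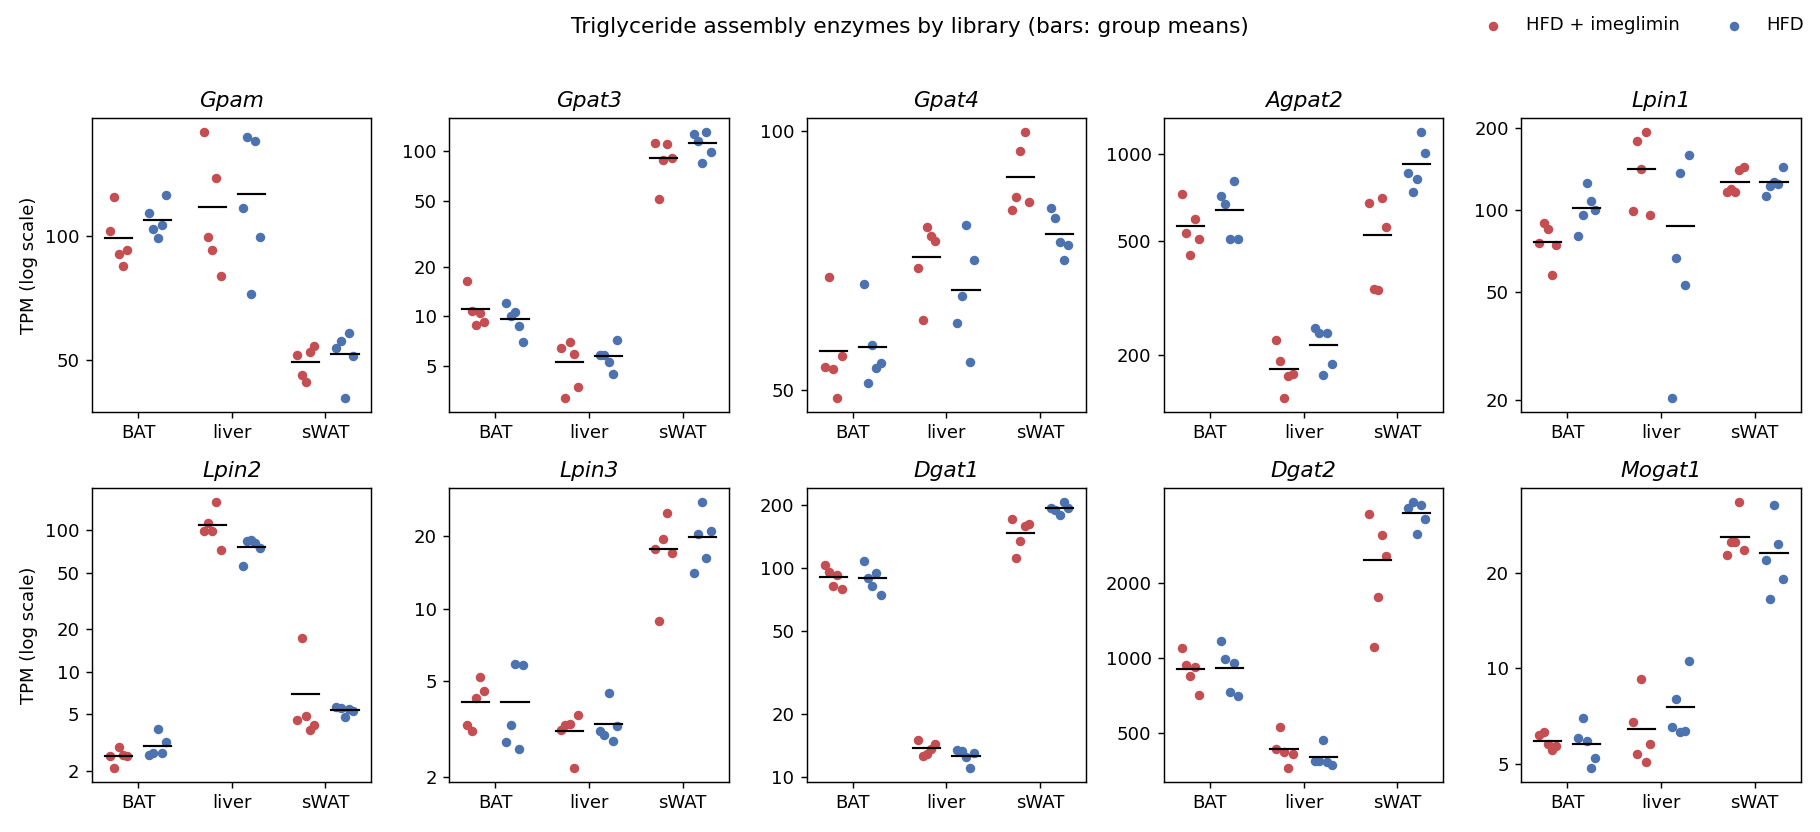
Level of each of the 10 genes in every library, in TPM on a log axis, by tissue, with imeglimin libraries (red) left of HFD libraries (blue) and horizontal bars at group means. Lpin2 stands between 55.6 and 160 TPM in liver and at most 17.4 TPM elsewhere, whereas Gpat3, Lpin3, Dgat1 and Mogat1 are highest in sWAT.

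All 10 enzymes were expressed in every tissue, and their levels on HFD differed between tissues. Gpat3, Lpin3, Dgat2 and Mogat1 were lower in BAT than in sWAT, Gpat3, Agpat2, Lpin3, Dgat1, Dgat2 and Mogat1 were lower in liver than in sWAT, and Gpam was higher in BAT and in liver than in sWAT. Gpat3, Agpat2, Dgat1 and Dgat2 were higher in BAT than in liver. Lpin2 was lower in BAT than in liver and higher in liver than in sWAT. These calls kept their direction and passed an adjusted p of 0.05 under every alternative processing tried. The tests used limma on log2(TPM + 1) with Benjamini-Hochberg adjustment over all genes that reached 1 TPM in 5 or more libraries. For BAT against liver 6 of the 10 passed, 4 higher and 2 lower in BAT, beside 74.6% of all 14023 genes tested (30.2% higher and 44.4% lower). For BAT against sWAT 9 passed, 1 higher and 8 lower, beside 90.2% of genes (6.57% higher and 83.7% lower). For liver against sWAT all 10 passed, 2 higher and 8 lower, beside 91% of genes (14.9% higher and 76.1% lower). Passing the test is thus common among all genes in these comparisons, which share their libraries in pairs.

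The size of a tissue difference depends on the scaling. On the log2 scale the median of all genes was -1.26 for BAT minus sWAT, -1.03 for liver minus sWAT and -0.16 for BAT minus liver. With median-ratio scaling, 6 of the 10 genes passed as higher in BAT than in sWAT and 4 as lower, beside 3992 and 5417 genes in all. With mitochondrial transcripts removed the split was 4 higher and 4 lower, beside 3183 and 7471 genes, where it was 921 and 11734 genes as deposited. For BAT minus liver, removing mitochondrial transcripts left 9 higher and 1 lower, beside 10215 and 2484 genes, against 4236 and 6226 as deposited. Shares of isoenzymes within a library do not depend on this scaling and are given as descriptions beside the tests.

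**Figure D2:**
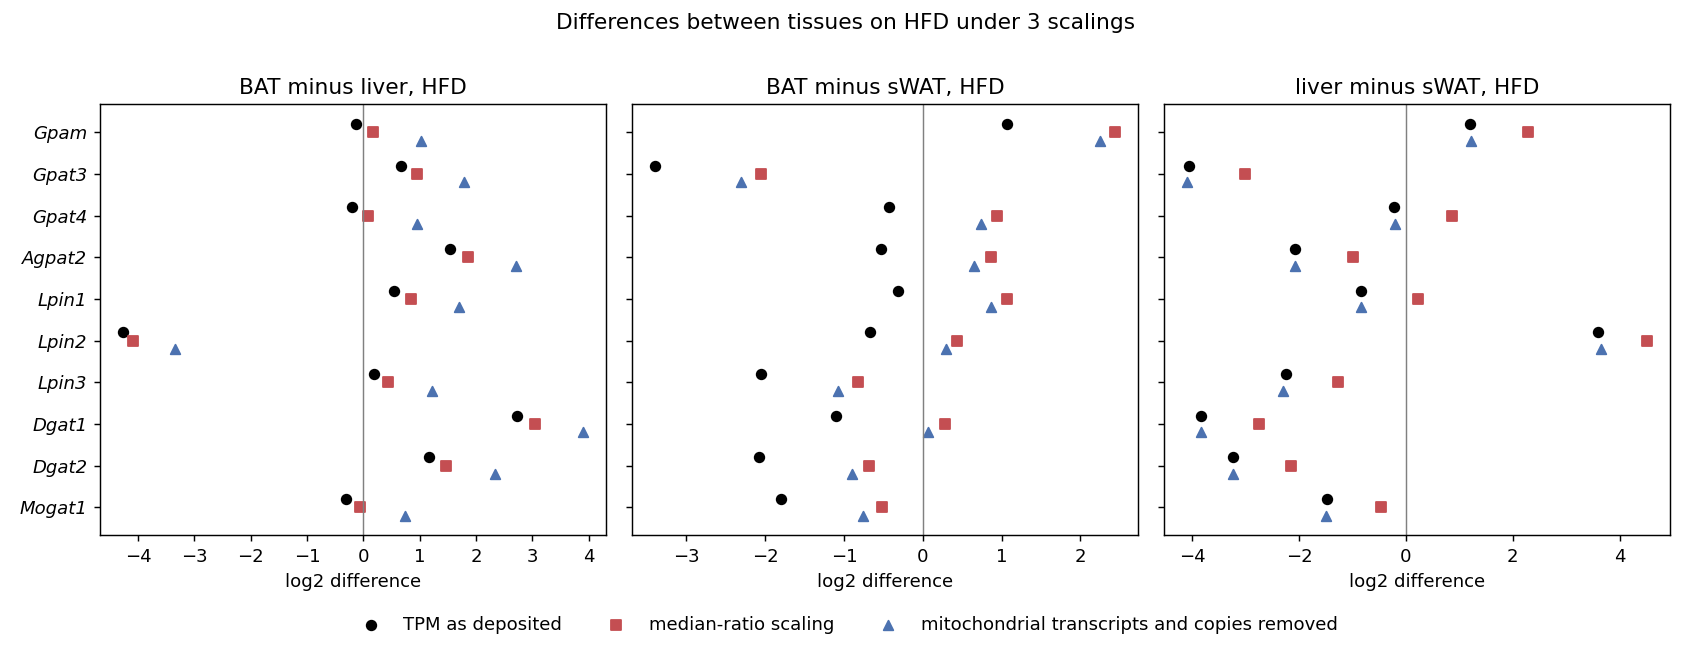
Differences between tissues on HFD, on the log2(TPM + 1) scale, for the 10 genes in BAT minus liver, BAT minus sWAT and liver minus sWAT (n = 5 libraries a tissue). With TPM as deposited, Lpin2 is the farthest below 0 in BAT minus liver at -4.26. On the same scale Gpat3 is the farthest below 0 in both comparisons with sWAT, at -3.40 and -4.06.

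Adding imeglimin to HFD gave no call among the 10 genes in any tissue. In sWAT the levels of Agpat2 and Dgat1 in all 5 imeglimin libraries lay below those in all 5 HFD libraries, and the means of Dgat2 were 2459 ± 1055 TPM with imeglimin and 3812 ± 449 TPM on HFD alone (SD, n = 5 each). Of 5 endothelial markers in sWAT all had a negative difference, with a median of -0.32 beside 0.04 over all genes. Their summed level was 485 TPM in imeglimin library 88 and 755 to 810 TPM in the other imeglimin libraries. On HFD alone it was 667 to 1066 TPM. Of 8 hepatocyte markers in sWAT 7 had a positive difference, with a median of 1.98. Their sum was 14518 TPM in imeglimin library 88 and 432 to 1134 TPM in the other imeglimin libraries, against 439 to 1011 TPM on HFD alone. Of 5 brown adipocyte markers only Cidea, Cox8b and Pdk4 passed the filter there, all positive, with a median of 0.42. Among those left out, Dio2 went the other way, with means of 0.284 TPM with imeglimin and 1.60 TPM on HFD alone. Ucp1 had 0.750 and 0.454 TPM. The part of these cell types in the Agpat2, Dgat1 and Dgat2 values was not tested. In BAT 0 of 10 passed in limma's test, beside 0.868% of 11402 genes (99 genes, 98 of them lower). In liver 0 of 10 passed, beside 0% of 11516 genes, with 484 genes at an unadjusted p under 0.05. In sWAT 0 of 10 passed, beside 0.0146% of 13736 genes (2 genes), with 1558 genes at an unadjusted p under 0.05. At an unadjusted p under 0.05 there was 1 of the 10 in BAT, beside 24.3% of genes, 1 in liver, beside 4.2%, and 4 in sWAT, beside 11.3%. The 2 genes of the 10 without overlap between groups in sWAT were both lower, a pattern shown by 1.47% of all genes tested there. No gene of the 10 was without overlap in BAT, beside 6.81% of genes, or in liver, beside 0.695%. The median difference of the 10 was -0.01 in BAT, 0.01 in liver and -0.13 in sWAT, beside -0.12, -0.01 and 0.04 over all genes.

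**Figure D3:**
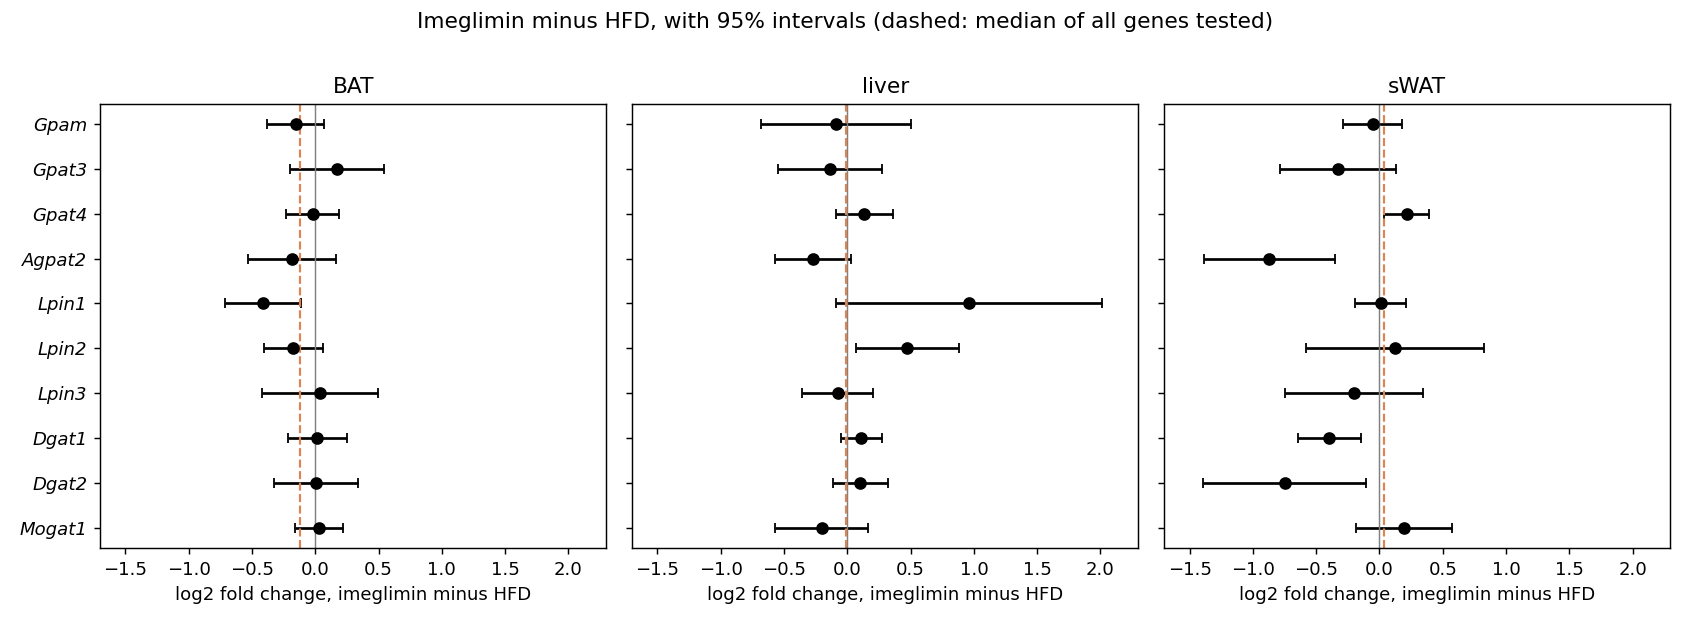
Imeglimin minus HFD for each of the 10 genes in BAT, liver and sWAT, on the log2(TPM + 1) scale with 95% intervals (n = 5 against 5 libraries a tissue); dashed lines mark the median of all genes tested. Agpat2, Dgat2 and Dgat1 in sWAT stand at -0.87, -0.75 and -0.40, and Lpin1 in liver at 0.96 with an interval that includes 0.

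Among the GPATs, Gpam encodes the mitochondrial outer membrane enzyme GPAT1 (chromosome 19, 55055700 to 55115670, minus strand, build GRCm39 as for all gene positions below). On HFD its level was 113, 104, 98.8, 106 and 125 TPM in BAT and 116, 173, 72.4, 169.6 and 99.4 TPM in liver, against 53.5, 55.6, 40.5, 58.2 and 51.1 TPM in sWAT. Every BAT and liver library lay above every sWAT library. Gpam was higher in BAT than in sWAT by 1.07 (SE 0.190, adjusted p = 5.29e-05 in limma) and higher in liver than in sWAT by 1.205 (SE 0.190, adjusted p = 1.50e-05), both in log2 units. BAT minus liver was -0.13 (95% interval -0.54 to 0.27), and 1.03 with mitochondrial transcripts removed (adjusted p = 1.58e-04), so that the order of these tissues turned on the scaling. With imeglimin Gpam averaged 98.7 ± 15.5 TPM in BAT, 117 ± 40.3 TPM in liver and 49.6 ± 4.20 TPM in sWAT, against 109 ± 10.2, 126 ± 44.1 and 51.8 ± 6.84 TPM on HFD alone (SD, n = 5 each). The widest of these differences was -0.16 in BAT (95% interval -0.38 to 0.07).

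Gpat3 (chromosome 5, 100993579 to 101046968, plus strand) encodes an endoplasmic reticulum GPAT known from adipocytes. In sWAT it had 112, 51.3, 89.2, 112 and 90.6 TPM with imeglimin and 127, 116, 85.0, 132 and 98.6 TPM on HFD alone. In BAT it had 16.3, 10.8, 8.88, 10.5 and 9.22 TPM with imeglimin and 12.0, 10.1, 10.6, 8.76 and 6.99 TPM on HFD alone, and in liver no library exceeded 7.23 TPM. The sWAT libraries stood above all others, the lowest being imeglimin library 88. On HFD, Gpat3 was lower in BAT than in sWAT (log2 difference -3.40, SE 0.146, adjusted p = 1.96e-12) and lower in liver than in sWAT (log2 difference -4.06, SE 0.146, adjusted p = 1.20e-13). It was higher in BAT than in liver by 0.66 (SE 0.146, adjusted p = 6.65e-04), although the lowest BAT library on HFD, at 6.99 TPM, overlapped the liver range. Imeglimin minus HFD was 0.17 in BAT (95% interval -0.20 to 0.54), -0.14 in liver (-0.55 to 0.27) and -0.33 in sWAT (-0.78 to 0.13). Without library 88 the sWAT value was -0.13, and the BAT value was 0.0362 without library 86 and 0.0705 without HFD library 83.

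Gpat4 (chromosome 8, 23661281 to 23698362, minus strand), a further endoplasmic reticulum GPAT, was the most even of the first-step enzymes across tissues, between 48.9 and 99.9 TPM in all 30 libraries. In sWAT it had 81.0, 83.8, 94.9, 99.9 and 82.7 TPM with imeglimin and 81.3, 79.2, 74.3, 70.8 and 73.6 TPM on HFD alone. The 2 groups overlapped only through imeglimin library 86, just below the highest HFD library. The difference was 0.22 (SE 0.080, 95% interval 0.04 to 0.39) with an adjusted p of 0.367 in limma. In BAT it was -0.02 and in liver 0.13, with intervals that include 0. Its tissue differences on HFD were small and turned on the scaling: BAT minus sWAT was -0.43 as deposited and 0.94 with median-ratio scaling, and BAT minus liver was -0.21 as deposited (adjusted p = 0.0499) and 0.95 with mitochondrial transcripts removed.

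The tissues thus divided their GPAT messages differently. Gpam made up 59.6% of the summed TPM of Gpam, Gpat3 and Gpat4 in BAT with imeglimin and 62.4% on HFD alone (means of 5 libraries), with ranges of 58.7% to 61.2% and 59.1% to 67.3%. In liver it made up 59.4% with imeglimin (50.5% to 70.2%) and 62.4% on HFD alone (46.6% to 74.4%), and in HFD library 79 Gpat4 led at 50.02%. In sWAT it made up 21.9% with imeglimin and 21.6% on HFD alone, and Gpat3 made up 39.1% with imeglimin (28.3% to 45.8%) and 46.4% on HFD alone (42.5% to 50.5%). Gpat3 stayed at 9.46% or less in every BAT library and 4.07% or less in every liver library. The summed GPAT level was 175 ± 12.7 TPM in BAT, 197 ± 36.9 TPM in liver and 239 ± 27.0 TPM in sWAT on HFD (SD, n = 5 each).

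**Figure D4:**
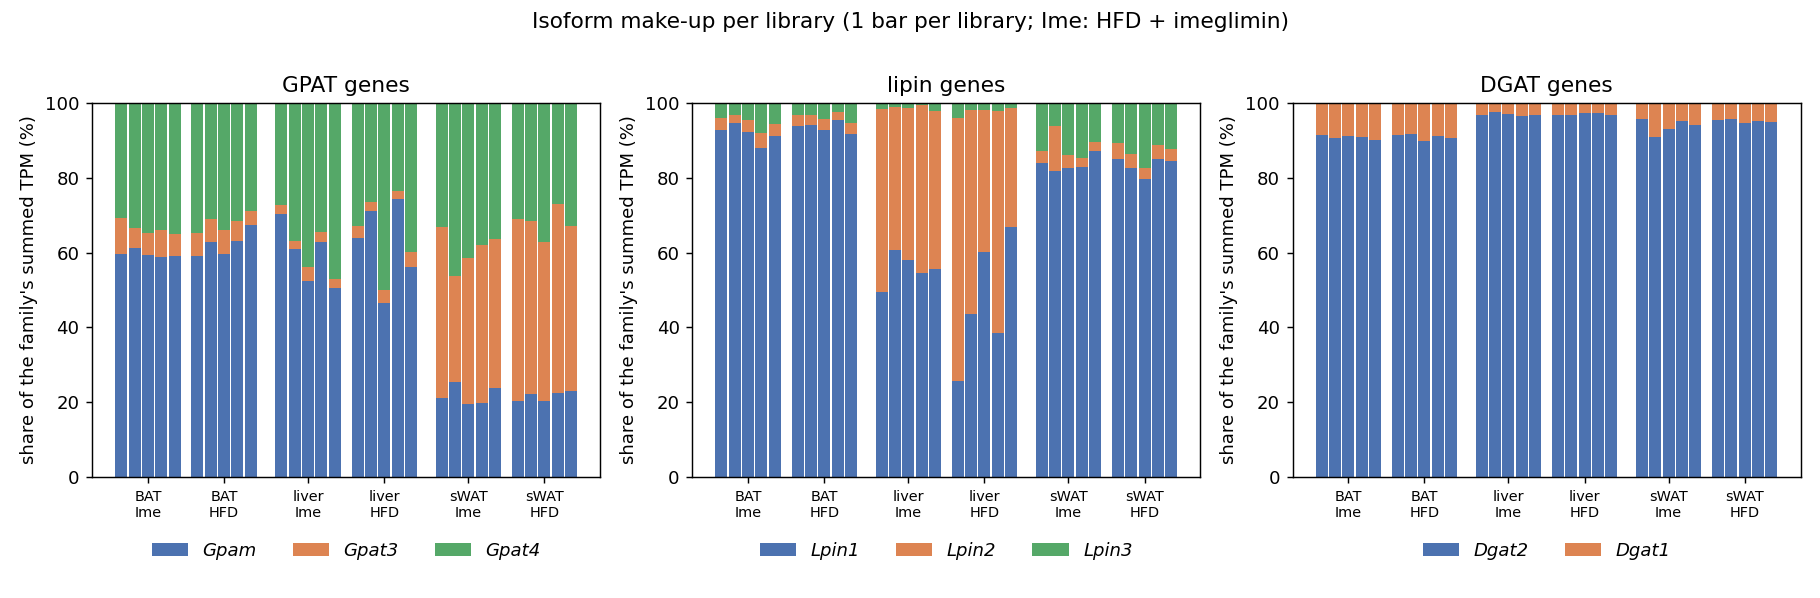
Isoenzyme make-up of the GPAT, lipin and DGAT genes in each library, by tissue with imeglimin left of HFD. By group mean Gpam holds the largest GPAT share in BAT and liver and Gpat3 in sWAT. In sWAT with imeglimin Gpat3 and Gpat4 are nearly equal, at 39.08% and 39.03%. In liver HFD library 79 Gpat4 exceeds Gpam, and Lpin2 holds 31.7% to 70.3% of the lipin sum in liver libraries on HFD.

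Agpat2 (chromosome 2, 26483069 to 26494429, minus strand) encodes the AGPAT whose loss causes generalised lipodystrophy in humans. On HFD it had 713, 671, 506, 803 and 505 TPM in BAT and 248, 240.1, 171, 239.7 and 187.5 TPM in liver, against 858, 736, 818, 1197 and 1011 TPM in sWAT. Liver lay below both fat depots without overlap. Agpat2 was higher in BAT than in liver by 1.55 (SE 0.157, adjusted p = 1.48e-07) and lower in liver than in sWAT (log2 difference -2.08, SE 0.157, adjusted p = 1.77e-09). BAT minus sWAT was -0.53 (adjusted p = 0.00448) as deposited but 0.86 with median-ratio scaling (adjusted p = 3.31e-04).

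With imeglimin, sWAT Agpat2 was 675, 339, 339, 707 and 559 TPM, against the 736 to 1197 TPM on HFD alone. The highest imeglimin library thus lay just under the lowest HFD library, and libraries 88 and 89 were the lowest. The difference was -0.87 (SE 0.235, 95% interval -1.39 to -0.35, adjusted p = 0.260 in limma), -0.73 (adjusted p = 0.204) without library 88, and -0.50 (adjusted p = 0.417) without libraries 88 and 89, a choice made after their values were seen. Agpat2 passed the threshold in the fit of all 30 libraries (adjusted p = 0.0112), in which 553 of 14953 genes passed for sWAT. Its share of the 5 Agpat genes, free of scaling, was 67.5% to 81.3% in imeglimin libraries of sWAT. In HFD libraries of sWAT it was 82.2% to 88.04%, again without overlap. Agpat2 made up most of this sum, so its share is not separate evidence from its level. Agpat2 averaged 561 ± 105 TPM with imeglimin and 640 ± 131 TPM on HFD alone in BAT, and 180.0 ± 30.9 and 217 ± 35.6 TPM in liver (SD, n = 5 each). Neither difference passed, at -0.18 (95% interval -0.53 to 0.16) and -0.27 (-0.57 to 0.03).

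The lipins are phosphatidic acid phosphatases, and Lpin1 also encodes a coactivator of transcription of fatty acid oxidation genes in liver. Lpin1 (chromosome 12, 16585670 to 16696967, minus strand) varied widely between livers. There it had 98.8, 179, 141, 193 and 95.5 TPM with imeglimin and 20.3, 66.4, 137, 52.8 and 159 TPM on HFD alone. The 2 highest HFD libraries lay within the imeglimin range, and the other 3 lay below it. The difference was 0.96 (SE 0.479, 95% interval -0.09 to 2.01, adjusted p = 0.984 in limma), and it ranged from 0.53 to 1.26 over the alternatives.

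In BAT Lpin1 had 75.6, 89.5, 85.0, 57.4 and 73.9 TPM with imeglimin and 80.3, 95.96, 125, 108 and 99.8 TPM on HFD alone. The groups overlapped through the lowest HFD library, and the highest value was that of HFD library 79, which also had the highest muscle marker sum. The difference was -0.41 (SE 0.135, 95% interval -0.71 to -0.12, adjusted p = 0.108), -0.30 relative to the median of all genes, and -0.33 (adjusted p = 0.289) without libraries 79 and 94. In sWAT the level was 127 ± 13.5 TPM with imeglimin and 126 ± 11.4 TPM on HFD alone (SD, n = 5 each), a difference of 0.01 with a 95% interval of -0.19 to 0.21. On HFD alone Lpin1 was lower in liver than in sWAT (log2 difference -0.85, SE 0.386, adjusted p = 0.0473), which passed in 3 of 11 alternatives. The call was lost with a pseudocount of 0.1 (adjusted p = 0.0513), without a filter (adjusted p = 0.0778), with mitochondrial transcripts removed (adjusted p = 0.0526) and without number 75, the HFD liver of 20.3 TPM (-0.46). Between imeglimin libraries the difference was 0.10. The imeglimin difference in BAT minus that in liver was -1.37 (SE 0.456, 95% interval -2.31 to -0.44, adjusted p = 0.245).

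Lpin2 (chromosome 17, 71489555 to 71556812, plus strand), the lipin known as the main one of liver, had 98.3, 113, 98.9, 160 and 72.9 TPM with imeglimin and 55.6, 83.5, 85.6, 81.2 and 75.4 TPM on HFD alone in that tissue. In BAT it had 2.08 to 2.96 TPM with imeglimin and 2.59 to 3.94 TPM on HFD alone. Liver thus stood far above BAT and sWAT. Lpin2 was lower in BAT than in liver (log2 difference -4.26, SE 0.116, adjusted p = 6.55e-15) and higher in liver than in sWAT by 3.59 (SE 0.116, adjusted p = 3.28e-14). Imeglimin minus HFD in liver was 0.47 (SE 0.185, 95% interval 0.07 to 0.88, adjusted p = 0.984 in limma), the only liver difference of the 10 genes with an unadjusted p under 0.05.

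In sWAT Lpin2 had 4.58, 17.4, 4.90, 3.88 and 4.21 TPM with imeglimin and 5.61, 5.55, 4.799, 5.42 and 5.29 TPM on HFD alone. Library 88 was the high imeglimin value, and it was the library with 14518 TPM of hepatocyte markers. The difference was 0.12 (95% interval -0.58 to 0.82) with library 88 and -0.23 (adjusted p = 0.386) without it. The part of other cell types in this value was not tested.

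Lpin3 (chromosome 2, 160722590 to 160747922, plus strand) had 17.7, 8.91, 19.5, 24.9 and 17.0 TPM in sWAT with imeglimin and 14.1, 20.4, 27.8, 16.3 and 21.0 TPM on HFD alone. It stayed between 2.18 and 5.91 TPM in all BAT and liver libraries, below every sWAT library. On HFD it was lower in BAT than in sWAT (log2 difference -2.06, SE 0.205, adjusted p = 6.11e-08) and lower in liver than in sWAT (log2 difference -2.24, SE 0.205, adjusted p = 2.07e-08). Imeglimin minus HFD was 0.04 in BAT, -0.08 in liver and -0.20 in sWAT, each with a 95% interval that includes 0, and the sWAT value was 0.0123 without library 88.

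Lpin1 supplied most of the lipin message in both fat depots, on average 91.8% with imeglimin and 93.5% on HFD alone in BAT, and 83.7% and 83.4% in sWAT. In liver Lpin1 supplied 55.6% with imeglimin (49.3% to 60.7%) and 47.0% on HFD alone (25.7% to 66.9%), so that in single HFD livers either Lpin1 or Lpin2 was the leading lipin. Lpin3 supplied 11.6% with imeglimin and 13.1% on HFD alone in sWAT. The summed lipin level in liver was 253 ± 73.6 TPM with imeglimin and 167 ± 65.9 TPM on HFD alone (SD, n = 5 each), with ranges of 172 to 355 and 79.04 to 237 TPM that overlapped.

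Both DGATs catalyse the final step, and they are unrelated in sequence. Dgat1 (chromosome 15, 76386215 to 76396153, minus strand) had 108, 89.4, 82.2, 94.5 and 74.4 TPM in BAT and 13.5, 13.4, 12.5, 11.04 and 13.01 TPM in liver, against 195, 189, 179, 208 and 194 TPM in sWAT, on HFD. The 3 tissues did not overlap. Dgat1 was higher in BAT than in liver by 2.72 (SE 0.086, adjusted p = 3.99e-14) and lower in liver than in sWAT (log2 difference -3.83, SE 0.086, adjusted p = 4.51e-16). BAT minus sWAT was -1.11 (SE 0.086, adjusted p = 2.78e-09) as deposited, but 0.28 after median-ratio scaling and 0.0654 once mitochondrial transcripts were removed.

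In sWAT Dgat1 had 172, 112, 134, 158 and 163 TPM with imeglimin, against the 179 to 208 TPM on HFD alone. All imeglimin libraries lay below all HFD libraries, and library 88 was the lowest. The difference was -0.40 (SE 0.114, 95% interval -0.65 to -0.15, adjusted p = 0.278 in limma), -0.30 (adjusted p = 0.172) without library 88 and -0.23 (adjusted p = 0.407) without libraries 88 and 89. It passed in the fit of all 30 libraries (adjusted p = 0.0251). In BAT Dgat1 averaged 90.5 ± 9.95 TPM with imeglimin and 89.7 ± 12.7 TPM on HFD alone, and in liver 13.8 ± 1.004 and 12.7 ± 1.01 TPM (SD, n = 5 each). The imeglimin difference in BAT minus that in sWAT was 0.41 (SE 0.142, adjusted p = 0.111), and that in liver minus that in sWAT was 0.50 (SE 0.142, adjusted p = 0.154).

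Dgat2 (chromosome 7, 98802865 to 98831926, minus strand) was the most abundant of the 10 genes in every group mean. In sWAT it had 3759.6, 1104, 1759.8, 3108 and 2566 TPM with imeglimin and 3993, 4227, 3126, 4107 and 3605 TPM on HFD alone. The ranges overlapped through imeglimin library 86, and libraries 88 and 89 were the lowest. The difference was -0.75 (SE 0.293, 95% interval -1.39 to -0.10, adjusted p = 0.383 in limma), -0.49 (adjusted p = 0.319) without library 88 and -0.29 (adjusted p = 0.625) without libraries 88 and 89. It passed in the fit of all 30 libraries (adjusted p = 0.0429). BAT had 904 ± 138 TPM with imeglimin and 909.9 ± 192 TPM on HFD alone, and liver had 433 ± 61.4 and 401 ± 39.2 TPM (SD, n = 5 each). On HFD, Dgat2 was higher in BAT than in liver by 1.16 (SE 0.127, adjusted p = 3.92e-07), lower in BAT than in sWAT (log2 difference -2.08, SE 0.127, adjusted p = 1.34e-10) and lower in liver than in sWAT (log2 difference -3.24, SE 0.127, adjusted p = 3.70e-13).

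The ratio of Dgat2 to Dgat1 averaged 9.96 with imeglimin and 10.1 on HFD alone in BAT, 31.7 and 31.8 in liver, and 16.0 and 19.7 in sWAT. In BAT the ratio lay between 8.88 and 11.04 in all 10 libraries, below every liver library, whose lowest was 26.6. In sWAT it lay between 9.83 and 21.9 with imeglimin and between 17.5 and 22.4 on HFD alone. The summed TPM of all 10 enzymes in sWAT was 1906 to 5012 with imeglimin and 4515 to 5943 on HFD alone, and Dgat2 and Agpat2 made up most of it. Of the 5 white adipocyte markers in sWAT, 2 had a positive and 3 a negative difference, with a median of -0.13, and none passed. Adipoq had 5486 ± 1480 TPM with imeglimin and 5795 ± 475 TPM on HFD alone, and Plin1 1435 ± 268 and 1315 ± 153 TPM. Lep had 4169 ± 1715 TPM with imeglimin and 5325 ± 677 TPM on HFD alone, Retn 1028 ± 222 and 1178 ± 93.1 TPM, and Cfd 7835 ± 1851 and 2945 ± 759 TPM (SD, n = 5 each).

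Mogat1 (chromosome 1, 78487628 to 78514810, plus strand) encodes a monoacylglycerol acyltransferase. It had 22.8, 25.1, 25.0, 33.6 and 23.7 TPM in sWAT with imeglimin and 22.03, 16.6, 32.9, 24.8 and 19.2 TPM on HFD alone. All BAT libraries lay between 4.83 and 6.95 TPM and all liver libraries between 5.05 and 10.6 TPM, below every sWAT library. On HFD it was lower in BAT than in sWAT (log2 difference -1.80, SE 0.166, adjusted p = 2.32e-08) and lower in liver than in sWAT (log2 difference -1.48, SE 0.166, adjusted p = 2.72e-07). Imeglimin minus HFD was 0.03 in BAT (95% interval -0.16 to 0.22), -0.20 in liver (-0.57 to 0.17) and 0.19 in sWAT (-0.19 to 0.57).

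A joint fit of the 30 libraries tested, as an interaction of tissue and treatment, whether the imeglimin difference itself differed between tissues. None of the 10 genes passed in limma for BAT minus liver, beside 0.167% of 14953 genes, for BAT minus sWAT, beside 2.05%, or for liver minus sWAT, beside 0.127%. For Agpat2 the imeglimin difference in BAT minus that in sWAT was 0.69 (95% interval 0.12 to 1.25, adjusted p = 0.171). For Dgat2 the same interaction was 0.75 (0.14 to 1.36, adjusted p = 0.165), and liver minus sWAT was 0.85 (0.24 to 1.46, adjusted p = 0.285). The interactions share the libraries of each tissue and are not separate evidence. At an unadjusted p under 0.05 there were 1531, 2786 and 1532 genes in the 3 interactions.

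Other genes of the pathway were described from 4 lists. Of 11 genes that supply glycerol 3-phosphate and acyl-CoA, 1 of 11 measured passed in BAT and 1 of 10 in sWAT. Gpd1, the cytosolic dehydrogenase that makes glycerol 3-phosphate, fell in BAT to 2654 ± 384 TPM with imeglimin, against 3982 ± 568 TPM on HFD alone (log2 difference -0.59, SE 0.115, adjusted p = 0.0485 in limma). Its groups did not overlap, and it passed in 5 of 16 alternatives (-0.65 to -0.44, adjusted p 0.0280 to 0.206). The difference was -0.55 (adjusted p = 0.206) without libraries 79 and 94. With mitochondrial transcripts removed it was -0.46 (adjusted p = 0.121). In sWAT, where it passed in the joint fit of 30 libraries (adjusted p = 0.0320) but not tissue by tissue, Gpd1 had 1291 ± 310 TPM with imeglimin and 1859 ± 146 TPM on HFD alone (log2 difference -0.56, adjusted p = 0.315). Pck1, phosphoenolpyruvate carboxykinase, the key enzyme of glyceroneogenesis in fat, rose in sWAT to 1525 ± 401 TPM with imeglimin, against 472 ± 102 TPM on HFD alone (log2 difference 1.68, SE 0.204, adjusted p = 0.0355; SD, n = 5 each). Its groups did not overlap, and it passed in 4 of 16 alternatives (1.54 to 1.77, adjusted p 5.49e-04 to 0.159).

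As fitted tissue by tissue, no gene passed among the 13 other acyltransferases and phosphatases, the 14 genes of the phospholipid branch or the 10 transcription regulators. Of these, Mogat2, a second monoacylglycerol acyltransferase, had 13.1 ± 6.398 TPM with imeglimin and 25.8 ± 5.11 TPM on HFD alone in sWAT (log2 difference -1.04, adjusted p = 0.286). Insig1, which holds the sterol regulatory protein SREBP in the endoplasmic reticulum, had 185 ± 62.3 and 408 ± 135 TPM in sWAT (log2 difference -1.15, adjusted p = 0.248), without overlap. Both passed in the joint fit of 30 libraries, Mogat2 with an adjusted p of 0.00586 and Insig1 with 0.0175. In BAT, Acsl5, an acyl-CoA synthetase, had 27.3 ± 4.49 TPM with imeglimin and 44.7 ± 12.0 TPM on HFD alone (log2 difference -0.67, adjusted p = 0.0637), and Chpt1, which makes phosphatidylcholine from diacylglycerol, had 189.7 ± 24.7 and 245 ± 18.9 TPM (log2 difference -0.37, adjusted p = 0.0606). Acsl5 passed in 2 of 16 alternatives, the joint fit (adjusted p = 0.0197) among them, and Chpt1 in 1, without imeglimin library 88 (adjusted p = 0.0176). In BAT, 11 of 13 measured phospholipid genes had a negative difference, with a median of -0.14, beside -0.12 over all genes.

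The genes whose log2(TPM + 1) followed each enzyme most closely over the 30 libraries are given as a description, since these correlations are set mainly by differences between tissues. For Dgat1 they were Ltbp3 and Tspan3, both at a Pearson r of 0.995. For Gpat3 they were Tcaf1 at 0.991 and Olfm1 at 0.990, for Lpin2 Slc25a15 at 0.991 and Abca6 at 0.990, and for Dgat2 Map6 at 0.985 and Cd320 at 0.984. Lpin3 was followed by Adamts15 at 0.977 and Ncs1 at 0.974, Mogat1 by Acp5 at 0.966 and Fancc at 0.965, and Agpat2 by Poln at 0.954 and Stom at 0.947. Gpat4 was followed by Ivd at 0.905 and Por at 0.894, and Gpam by Zswim5 at 0.899 and by the glycerol kinase gene Gk at 0.896. The closest gene to Lpin1, Cdip1, reached 0.780, and the next, Zbtb16, 0.619, the lowest of the 10.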

How the data were processed

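Poly(A) RNA libraries were strand-specific, per the labels' protocols. STAR, RSEM and build GRCm39 are named per the submitters' processing notes; versions and annotation release: not given in the sources used here. Deposited TPM values were used, and TPM as the authors deposited it sums to 1000000 in each of the 30 columns over 55357 genes and keeps no depth, so precision rests on the spread of 5 libraries a group. No 2 columns were identical.

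Values were analysed as log2(TPM + 1), which understates changes of low genes, with limma 3.58.1 (R 4.3.3, trended variance, two-sided, Benjamini-Hochberg, threshold 0.05) over genes that reached 1 TPM in 5 or more libraries of the fit. Each tissue was fitted alone for imeglimin, the 15 HFD libraries together for tissues, and all 30 for interactions. All 10 enzymes passed the filter in each fit. The code was tested on simulated data. Alternatives covered the pseudocount, filter, scaling, a joint fit and left-out libraries. The enzymes and lists were chosen with earlier results of these data known. Named were all 10 enzymes, list genes past the threshold in an imeglimin comparison, and 2 nearest genes for each enzyme. Of the 3 list genes of lowest p per list and tissue, only some are named. Acsl5, Chpt1, Mogat2 and Insig1 each passed under at least 1 alternative, and no list gene is named for liver. Promoters came from RefSeq (GRCm38.p6); gene positions are GRCm39.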

Additional observations from a re-analysis of the deposited data

Results flagged for a closer look

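Of 60 groups of 5 libraries (10 genes, 3 tissues, 2 treatments), 5 held a library whose gap to the nearest other exceeded Dixon's 95% critical value of 0.71 of the group's range; chance gives about 1 in 20. Gpat3 in BAT with imeglimin was 16.3 TPM in library 86, against 8.88 to 10.8 TPM in the other imeglimin libraries. Lpin2 in sWAT with imeglimin was 17.4 TPM in library 88, against 3.88 to 4.90 TPM in the others, and this library also held 14518 TPM of hepatocyte markers and 1318 TPM of B-lymphocyte markers. Lpin3 and Dgat2 in liver on HFD were highest in library 79, at 4.48 TPM against 2.84 to 3.28 TPM and at 470 TPM against 374 to 389 TPM in the other HFD libraries. Mogat1 in sWAT with imeglimin was 33.6 TPM in library 91, against 22.8 to 25.1 TPM in the others.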

How the results depend on the processing

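For imeglimin minus HFD, no enzyme passed in BAT or liver under any alternative, and in sWAT 3 passed (Agpat2, Dgat1 and Dgat2) in the fit of all 30 libraries and 0 otherwise. Counts of all genes moved more. In BAT the 99 calls became 0 without a filter, 5 under either rescaling (median ratio, or mitochondrial transcripts removed), 398 in the joint fit, 0 without libraries 79 and 94 and 0 to 698 with single libraries left out (0 without HFD library 76, 79 or 80 or imeglimin library 89, 91 or 94). Liver had 2 in the joint fit. In sWAT the 2 calls became 0 without a filter, 1 under either scaling, 1 without libraries 88 and 89 (a lower gene, where the 2 were higher), 553 in the joint fit and 0 to 4 with single libraries left out.

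BAT minus liver had 10 enzymes past the threshold without mitochondrial transcripts, where Gpam stood at 1.03, Gpat4 at 0.95 and Mogat1 at 0.74, opposite to the deposited scale; Gpat4 was 0.0899 with median-ratio scaling. BAT minus sWAT turned positive with median-ratio scaling for Gpat4 (0.94), Agpat2 (0.86), Lpin1 (1.07), Lpin2 (0.44) and Dgat1 (0.28), and without mitochondrial transcripts for Gpat4 (0.74), Agpat2 (0.65), Lpin2 (0.30) and Dgat1 (0.0654). Liver minus sWAT turned positive with median-ratio scaling for Gpat4 (0.85) and Lpin1 (0.23). By construction both scalings raise BAT values. With imeglimin libraries in place of HFD libraries, Lpin1 was -0.84 in BAT minus liver and 0.10 in liver minus sWAT, and Agpat2 was 0.15 in BAT minus sWAT; the cause was not tested. Gpat4 lost its calls in BAT minus liver and in liver minus sWAT, and Lpin1 its call in liver minus sWAT, when any of several single numbers was left out, where by construction fewer genes were tested.

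Interaction counts for BAT minus liver (25) were 5 without a filter, 10 with median-ratio scaling, 8 without mitochondrial transcripts, 5 without BAT libraries 79 and 94 and sWAT library 88, and 0 to 193 with single numbers left out. For BAT minus sWAT (306) they were 202 with a pseudocount of 0.1, 44 with median-ratio scaling, 65 without mitochondrial transcripts, 144 without those 3 libraries, and 23 to 867 with single numbers left out. For liver minus sWAT (19) they were 2 with a pseudocount of 0.1, 2 under either scaling, and 0 to 89 with single numbers left out.

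The same replicate numbers recur across tissues, but over 30 same-number pairs the correlation of deviations ran from -0.484 to 0.310, with 9 over 0.1, and 17 were best with their own number. The lowest was number 88 between BAT and sWAT, and BAT and sWAT on HFD had 4 of 5 pairs over 0.1. Not every pair exceeded 0.1, so the numbers were not taken to pair samples, which does not show that they are unpaired. With the replicate block, 6, 9 and 10 enzymes passed in the tissue comparisons and 0 in the interactions, as without it, and 9, 327 and 14 genes passed in the interactions. Treatment groups share no numbers. Depth is unknown.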
